A study of Mus musculus with 20 samples.

Results

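The 10 genes described here encode core parts of the circadian clock and of its first output layer: Arntl, Npas2, Clock, Per2, Per3, Cry1, Nr1d1, Nr1d2, Dbp and Tef. They were taken by gene symbol from the joined count table of 24762 genes, where all 10 had a row in each of the 4 deposited tables, and all 10 were among the 15549 genes with enough reads to be tested. In this clock, ARNTL (also called BMAL1) pairs with CLOCK or its relative NPAS2 and switches on genes with an E-box, among them the period, cryptochrome, Nr1d1, Nr1d2, Dbp and Tef genes. PER and CRY proteins then block that activator, NR1D1 and NR1D2 (REV-ERB alpha and beta) repress Arntl and Npas2, and DBP and TEF act on genes with a D-box. The transcripts therefore cycle over the day in opposite phases, with Arntl and Npas2 high when Dbp is low, and the kidney runs such a clock in its tubule cells.

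The RNA came from snap-frozen kidneys of C57BL/6J mice, all orchidectomised, that is, with the testes and so the main source of androgen removed. ARLmon/Y mice carry a mutant X-linked androgen receptor whose ligand-binding domain is altered so that it does not dimerise through that domain. The 4 groups of 5 libraries were ARLmon/Y mice given testosterone, ARLmon/Y mice given vehicle, wild type (WT) mice given testosterone and WT mice given vehicle, each for 4 days. The labels give neither an age nor the time of day at which kidneys were removed, and they do not say that each library is a separate mouse, so p-values measure only the spread between these libraries.

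Total counts ran from 8342000 to 38101526 reads per library, and the share of mitochondrially encoded reads from 6.86% to 11.1%. The 5 proximal tubule markers summed to between 6894 and 11969 CPM in every library. CPM is a gene's reads scaled to its library's reads in tested genes, adjusted by that library's TMM normalization factor. Adrenal cortex markers, of a gland that lies on the kidney, summed to 20.4 CPM in the ARLmon/Y vehicle library GC078620 and to at most 1.96 CPM in the other libraries. Odc1, an androgen-induced enzyme of polyamine synthesis, was higher with testosterone in WT kidneys (log2 difference 2.87, SE 0.12, edgeR adjusted p = 9.15e-13) and did not pass the test in ARLmon/Y kidneys (log2 difference -0.10, edgeR adjusted p = 0.796). Libraries are named below by the codes of the deposited columns, which give a group but no replicate number, and values of a group are listed in the order of these codes. ARLmon/Y testosterone libraries run from GC078612 to GC078616, ARLmon/Y vehicle libraries from GC078617 to GC078621, WT testosterone libraries from GC078607 to GC078611 and WT vehicle libraries from GC078602 to GC078606.

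The activator gene Arntl (chromosome 7, 113207465 to 113314126, plus strand of GRCm38) had 9.96, 9.02, 25.5, 5.58 and 6.53 CPM in ARLmon/Y testosterone kidneys and 7.94, 5.30, 9.81, 27.8 and 4.45 CPM in ARLmon/Y vehicle kidneys. In WT kidneys it had 9.92, 4.47, 10.7, 15.2 and 26.8 CPM with testosterone, against 15.9, 12.3, 5.38, 36.8 and 34.0 CPM with vehicle. Every group held low and high libraries: GC078614, GC078620 and GC078611 stood highest in their groups, and GC078605 and GC078606 did so among WT vehicle libraries. The groups overlapped over most of the range. A ROR response element, the kind of site that NR1D1 and NR1D2 share with the activating ROR receptors, matched bases 27 to 37 after one of the RefSeq starts of Arntl. It is shown because this repression is the known link from the REV-ERB genes back to Arntl, and lies at chr7:113207528-113207557 on the plus strand of GRCm38.p6, with the element in capitals.
Arntl: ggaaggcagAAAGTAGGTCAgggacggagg

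Npas2 (chromosome 1, 39193731 to 39363236), whose protein can take the place of CLOCK beside ARNTL, had 5.78, 7.03, 16.6, 2.08 and 2.16 CPM in ARLmon/Y testosterone kidneys and 5.76, 3.42, 4.57, 20.4 and 2.31 CPM in ARLmon/Y vehicle kidneys. WT kidneys held 8.97, 2.30, 12.2, 10.8 and 24.6 CPM with testosterone, against 10.2, 6.27, 4.77, 28.0 and 25.8 CPM with vehicle. GC078614, GC078620, GC078611, GC078605 and GC078606 again held the highest values of their groups, and the groups overlapped. Clock itself (chromosome 5, 76209868 to 76304792) had the smallest ratio of highest to lowest CPM of the 10 genes, 3.53, from 20.96 CPM in GC078618 to 74.0 CPM in GC078611.

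Dbp (chromosome 7, 45705088 to 45710203) encodes a D-box activator and is a direct target of ARNTL. It had 74.2, 69.2, 19.7, 91.7 and 131 CPM in ARLmon/Y testosterone kidneys and 81.2, 121, 84.1, 23.1 and 149 CPM in ARLmon/Y vehicle kidneys. The WT values were 54.4, 118, 54.0, 43.7 and 7.63 CPM with testosterone, against 40.7, 56.9, 114, 3.56 and 3.07 CPM with vehicle. The libraries high for Arntl were low for Dbp without exception: GC078614, GC078620 and GC078611 held the lowest Dbp of their groups, and GC078605 and GC078606 held the lowest values of the WT vehicle group and of all 20 libraries. The highest value, in GC078621, was 48.5 times the lowest, in GC078606. The ratio of Dbp to Arntl CPM, which is not corrected for transcript length and is compared only between libraries, ran from 0.0903 in GC078606 to 33.5 in GC078621. It was 0.0966 in GC078605, 0.284 in GC078611, 0.771 in GC078614 and 0.831 in GC078620, and 2.55 or more in every other library.

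**Figure D1:**
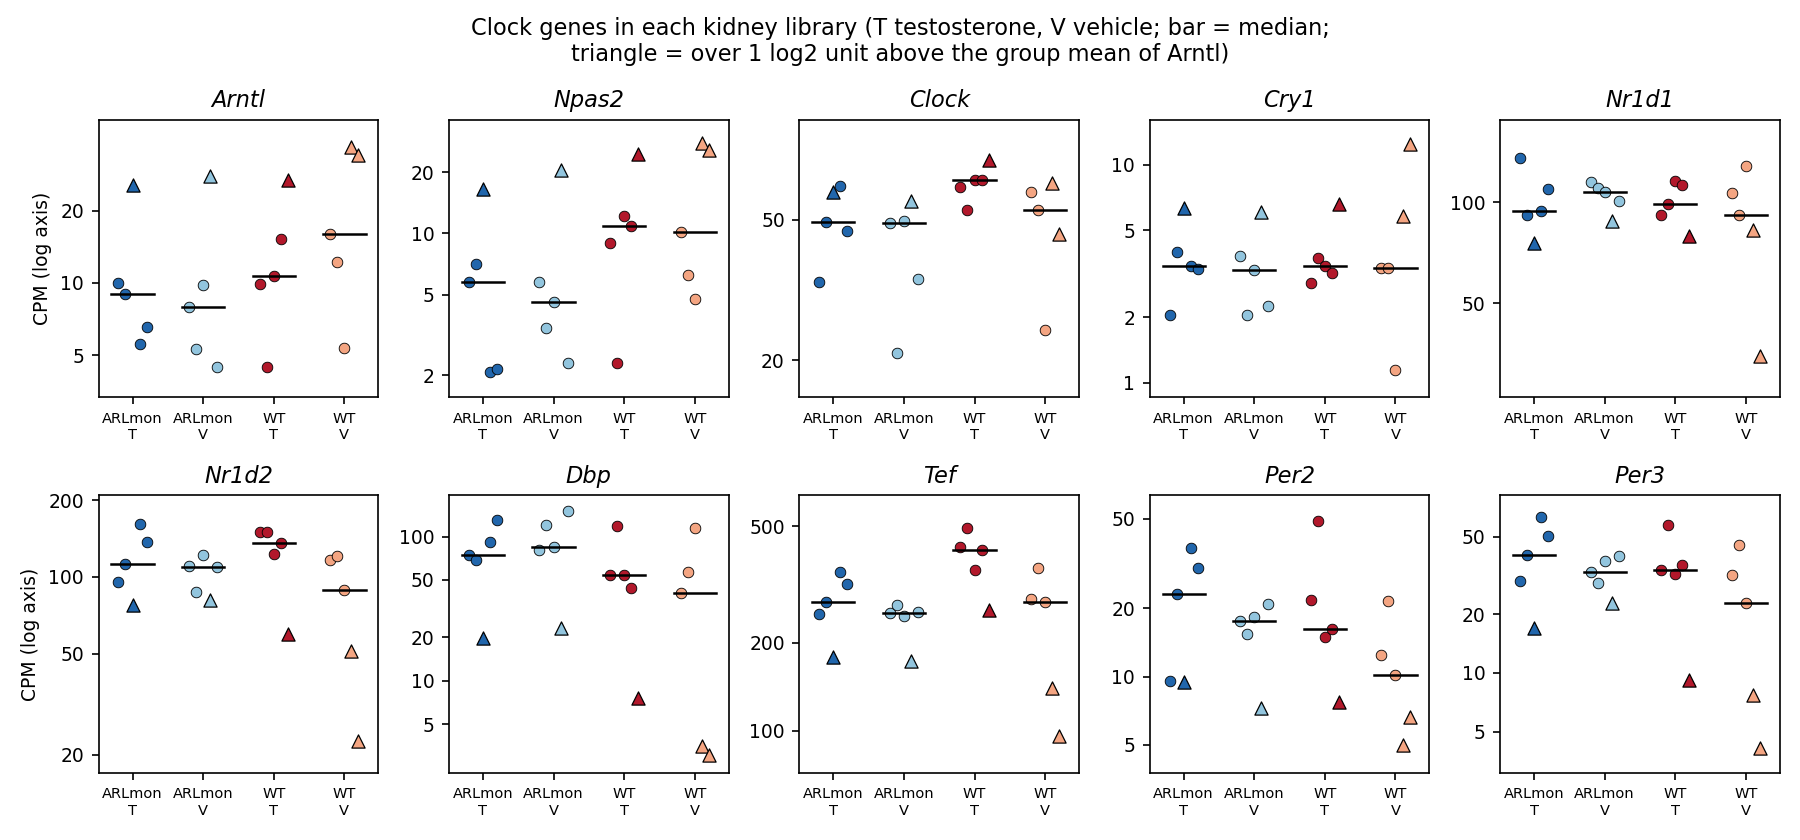
CPM of each of the 10 clock genes in the 20 kidney libraries on log axes, by group, with the group median as a bar; triangles mark the 5 libraries over 1 log2 unit above their group mean of Arntl. The triangles sit at the top of each group for Arntl, Npas2 and Cry1 and at the bottom for Dbp, Tef, Per2, Per3, Nr1d1 and Nr1d2, while all groups overlap.

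Tef (chromosome 15, 81802421 to 81826863), a second D-box activator, had 250.03, 276, 179, 350.4 and 317 CPM in ARLmon/Y testosterone kidneys and 253, 269, 247, 174 and 255 CPM in ARLmon/Y vehicle kidneys. In WT kidneys the values were 425, 493, 354, 415 and 258 CPM with testosterone, against 282, 359.8, 275, 139.8 and 95.6 CPM with vehicle. GC078607, GC078608 and GC078610 lay above every WT vehicle library, GC078609 and GC078611 lay within their range, and the lowest Tef values of each group again fell in the libraries high for Arntl. Tef has an E-box, CACGTG, in the windows before 2 of its RefSeq starts, at chr15:81802534-81802563 and chr15:81811264-81811293 on the plus strand of GRCm38.p6, shown here with the E-box in capitals because it is the letters that ARNTL pairs are known to bind.
Tef, first start: gtgctgtggctcCACGTGctgcagctggca
Tef, second start: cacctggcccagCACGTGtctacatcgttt

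Per2 (chromosome 1, 91415982 to 91459324) encodes a repressor of the ARNTL pair. It had 9.61, 23.1, 9.43, 36.9 and 30.3 CPM in ARLmon/Y testosterone kidneys and 17.7, 15.4, 18.3, 7.29 and 21.005 CPM in ARLmon/Y vehicle kidneys. Among WT kidneys there were 21.7, 48.8, 14.98, 16.2 and 7.72 CPM with testosterone, against 12.4, 21.7, 10.2, 5.01 and 6.60 CPM with vehicle. GC078608 stood far above the other libraries of its group, and the groups overlapped.

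Per3 (chromosome 4, 151003652 to 151044665), a relative of Per2, had 29.7, 40.3, 16.9, 62.7 and 50.3 CPM in ARLmon/Y testosterone kidneys and 32.7, 28.7, 37.6, 22.7 and 39.9 CPM in ARLmon/Y vehicle kidneys. WT kidneys had 33.6, 57.1, 32.2, 35.8 and 9.21 CPM with testosterone, against 31.7, 45.5, 22.8, 7.67 and 4.10 CPM with vehicle. The low libraries were the same as for Dbp. Of the members found in the RefSeq promoter table, Per3 alone has the D-box TTATGTAA, the letters that DBP and TEF are known to bind, in its window, and it has 2 of them. The 250 bases before its RefSeq start are at chr4:151044666-151044915 on the minus strand of GRCm38.p6, with both D-boxes in capitals.
Per3: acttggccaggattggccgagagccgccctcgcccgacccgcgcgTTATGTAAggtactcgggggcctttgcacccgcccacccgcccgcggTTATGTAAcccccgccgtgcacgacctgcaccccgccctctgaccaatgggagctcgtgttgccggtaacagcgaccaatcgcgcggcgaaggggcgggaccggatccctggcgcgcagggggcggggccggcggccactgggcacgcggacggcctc

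Cry1 (chromosome 10, 85131700 to 85185064), a strong repressor of the ARNTL pair, had 2.05, 3.98, 6.36, 3.45 and 3.33 CPM in ARLmon/Y testosterone kidneys and 3.82, 2.05, 3.29, 6.08 and 2.25 CPM in ARLmon/Y vehicle kidneys. The WT libraries held 2.85, 3.75, 3.45, 3.17 and 6.64 CPM with testosterone, against 3.34, 3.34, 1.14, 5.85 and 12.4 CPM with vehicle. Cry1 was thus high in the libraries high for Arntl, on the other side from Per2 and Per3, and the groups overlapped. The 250 bases before its RefSeq start hold an E-box, CACGTG, and an E-box variant, CACGTT, which reads AACGTG on the strand shown. They are at chr10:85185055-85185304 on the minus strand of GRCm38.p6, with both in capitals.
Cry1: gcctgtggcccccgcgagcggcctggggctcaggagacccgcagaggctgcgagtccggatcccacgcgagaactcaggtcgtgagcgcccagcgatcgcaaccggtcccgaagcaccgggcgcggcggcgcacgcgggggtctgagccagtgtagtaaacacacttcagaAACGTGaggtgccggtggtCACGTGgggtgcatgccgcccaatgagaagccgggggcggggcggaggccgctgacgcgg

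Nr1d1 (chromosome 11, 98767932 to 98775333) and Nr1d2 (chromosome 14, 18204054 to 18239127) encode the REV-ERB repressors of Arntl. Nr1d1 ran from 75.7 to 136 CPM in ARLmon/Y testosterone kidneys, from 87.9 to 115 CPM in ARLmon/Y vehicle kidneys, from 79.2 to 116 CPM in WT testosterone kidneys and from 34.8 to 129 CPM in WT vehicle kidneys. Nr1d2 ran from 77.7 to 161 CPM in ARLmon/Y testosterone kidneys, from 81.0 to 122 CPM in ARLmon/Y vehicle kidneys, from 59.5 to 151 CPM in WT testosterone kidneys and from 22.7 to 120.4 CPM in WT vehicle kidneys. Both were lowest in GC078614, GC078620, GC078611 and GC078606 within their groups. Nr1d1 has the E-box variant before its RefSeq start, at chr11:98775388-98775417 on the minus strand of GRCm38.p6, in capitals as AACGTG.
Nr1d1: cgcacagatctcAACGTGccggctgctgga

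Of the 10 genes, 9 matched the RefSeq promoter table, in windows of 300 bases from 250 before to 50 after each start, searched on both strands. The E-box CACGTG reads alike on both strands and was found for Cry1 and Tef and in 7.15% of all 32851 windows, and CACGTT for Cry1 and Nr1d1 and in 4.68%. TTATGTAA was found for Per3 and in 0.938% of windows, and the ROR response element for Arntl and in 0.384%. None of these matches overlaps a match of another kind, and a window without a match says only that these letters are not in it.

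Levels of different genes were compared per kilobase of exon. Over the 20 libraries Tef had the highest mean, 36.0 CPM per kilobase, followed by Nr1d1 at 32.0, Dbp at 22.4 and Nr1d2 at 19.6. A wide step separated these from Clock at 3.74, Per3 at 3.34, Per2 at 3.03, Npas2 at 2.13, Arntl at 1.88 and Cry1 at 1.24 CPM per kilobase. Within WT vehicle kidneys, Tef had 29.3 ± 13.9, Nr1d1 28.9 ± 11.3, Nr1d2 14.8 ± 7.85 and Dbp 14.6 ± 15.3 CPM per kilobase (SD, n = 5). In the lower part of the order, Clock had 3.60 ± 1.13, Npas2 3.13 ± 2.31, Arntl 2.78 ± 1.84, Per3 2.33 ± 1.78, Per2 1.91 ± 1.12 and Cry1 1.56 ± 1.303 CPM per kilobase in the same kidneys (SD, n = 5). These SDs are between libraries. All genes were read in the same libraries, so the SDs do not say whether a gene exceeded its neighbour within each library. That was not tested. Dbp shares 539 of its 2993 exon bases with Sphk2 and Nr1d1 263 of 3077 with Thra, both on the opposite strand. The library kit keeps strand but the strand setting of the counting is not stated in the sources used here, so reads in these stretches cannot be assigned with certainty.

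Pooled over the 4 groups, the spread between libraries of one group was wide for the clock genes. The within-group SD of log2 CPM was 1.57 for Dbp, 1.19 for Npas2, 0.99 for Arntl, 0.96 for Per3, 0.83 for Per2, 0.77 for Cry1, 0.63 for Nr1d2, 0.49 for Tef, 0.45 for Clock and 0.42 for Nr1d1, against a median of 0.26 over all 15549 tested genes. Dbp stood at the 99.9th percentile of all tested genes by this measure and Nr1d1, the lowest of the 10, at the 78.5th. The groups were not alike in spread. For Dbp, Tef, Arntl, Per3, Cry1, Nr1d1 and Nr1d2 it was widest among WT vehicle libraries. The SD of log2 CPM of Nr1d1 was 0.73 there and 0.15 in ARLmon/Y vehicle kidneys. For Dbp these SDs were 2.38 and 1.04, and for Npas2 1.15 and 1.17. In bulk kidney RNA, fewer cells of a type and less RNA per cell cannot be told apart.

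To follow how the genes moved together, 2 libraries of the same group were compared at a time, which gives 40 pairs of libraries. Dbp and Arntl differed in opposite directions in 36 of the 40 pairs, and Dbp and Npas2 in 37. Arntl and Npas2 differed in the same direction in 37 pairs. Among the repressors, Per2 and Per3 went the same way in 38 pairs, Per2 and Nr1d2 in 37 and Per3 and Nr1d2 in 37, whereas Cry1 and Nr1d1 went opposite ways in 31. Dbp and Tef went the same way in 33 pairs. Nr1d1 followed its relative Nr1d2 in 25 pairs and Per2 in 22. Pairs of libraries share libraries, so these counts are descriptions.

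**Figure D2:**
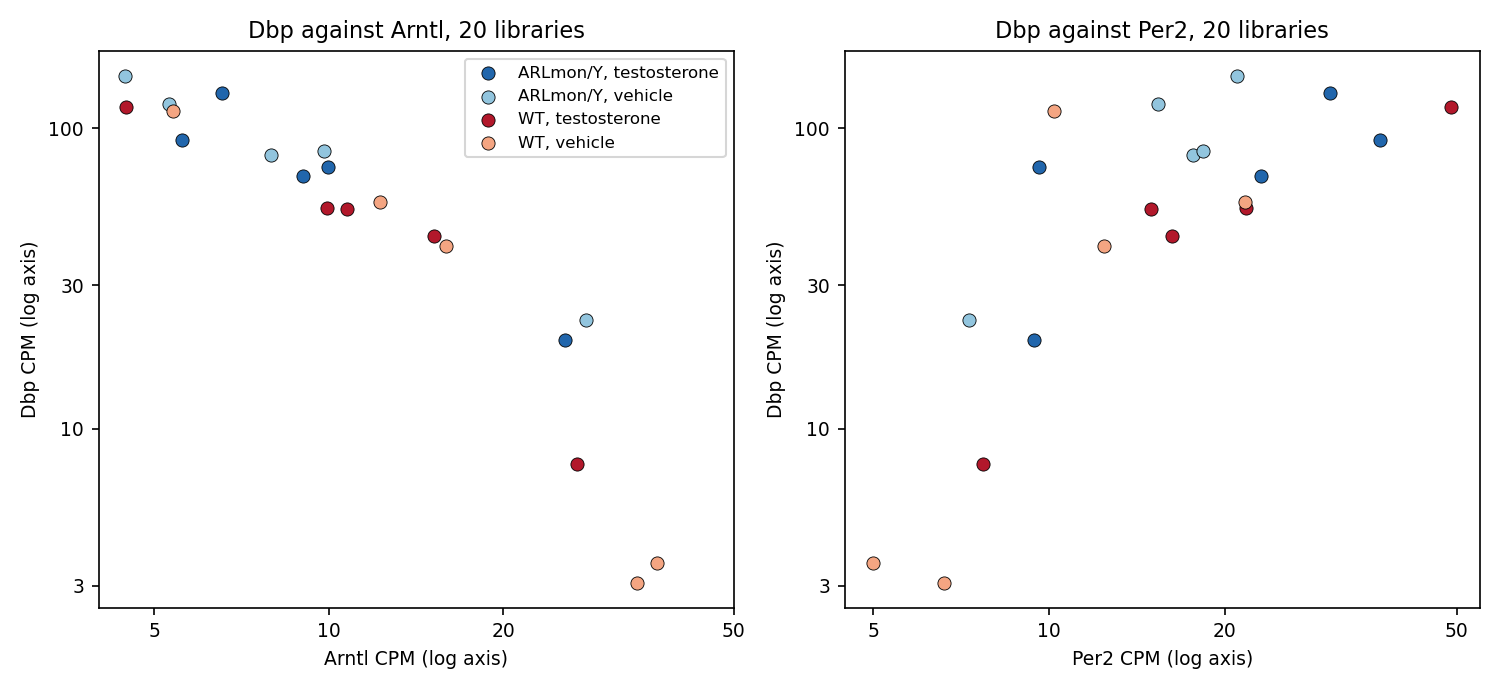
Dbp against Arntl and Dbp against Per2 in CPM on log axes, 1 point per library (20 libraries, coloured by group). Libraries of all 4 groups run from low Arntl with high Dbp (GC078621, 4.45 and 149 CPM) to high Arntl with low Dbp (GC078606, 34.0 and 3.07 CPM).

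The same relation was fitted across all genes as the log2 change of a gene per log2 unit of Arntl between libraries of one group (edgeR quasi-likelihood test with the 4 group means and the within-group deviation of Arntl). Of the other 9 clock genes 6 were called at an adjusted p below 0.05, where 132 of 15548 tested genes (0.849%) were called. All 9 had an unadjusted edgeR p below 0.05, as had 3165 of the 15548 tested genes. Npas2 was higher where Arntl was higher, with a slope of 1.13 (SE 0.08, edgeR adjusted p = 8.04e-08), and so was Cry1, with a slope of 0.64 (SE 0.12, edgeR adjusted p = 0.00845). Genes with a called slope above 0 made up 0.502% of those tested. The other 4 called members had slopes below 0, as had 0.347% of the genes tested. Dbp had a slope of -1.36 (SE 0.14, edgeR adjusted p = 3.27e-05). Per2 had -0.72 (SE 0.12, edgeR adjusted p = 0.0048), Per3 -0.67 (SE 0.15, edgeR adjusted p = 0.0369) and Tef -0.39 (SE 0.07, edgeR adjusted p = 0.0118). Clock, Nr1d2 and Nr1d1 did not pass the test, with slopes of 0.26, -0.39 and -0.22 and edgeR adjusted p of 0.123, 0.0942 and 0.159. The median slope was -0.39 over the 9 genes and 0.01 over all genes.

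Most of the slopes, though not all, lean on the libraries that stand highest for Arntl. The slope of Clock ran from 0.15 to 0.40 over all 32 alternative settings. Without GC078605, GC078606, GC078611, GC078614 and GC078620 together, an alternative added after the values were seen, Dbp was the 1 member called among 4 genes. Its slope then was -0.85. Npas2 had a slope of 1.08 (edgeR adjusted p = 0.156). The slopes of Per2, Cry1, Per3 and Tef were -0.54, 0.36, -0.19 and -0.12, each nearer 0 than with all libraries, with edgeR adjusted p from 0.297 to 0.517, and the slopes of Nr1d1 and Nr1d2 came to 0.02 and 0.00053. Leaving out 1 library at a time kept the sign of all 9 slopes, while the number of all genes called ran from 44 without GC078604 to 1270 without GC078615. Cry1 missed the threshold without GC078604 (edgeR adjusted p = 0.0591) and without both GC078604 and GC078620, the 2 libraries farthest from their group mean of Arntl (edgeR adjusted p = 0.277). Per3 missed it without any 1 of 8 libraries, GC078605, GC078607, GC078608, GC078609, GC078611, GC078613, GC078614 or GC078616, with an edgeR adjusted p of up to 0.114, and with limma on the deposited log2 values (adjusted p = 0.0513). Without GC078615, Clock (edgeR adjusted p = 0.0282) and Nr1d2 (edgeR adjusted p = 0.048) passed it. Sphk2 and Thra, which overlap Dbp and Nr1d1 on the other strand, had slopes of 0.03 and 0.05 (edgeR adjusted p = 0.744 and 0.429).

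Red cell markers moved with this slope. All 3 were called below 0, at -0.59 for Hba-a1, -0.54 for Hbb-bs and -0.76 for Hbb-bt (edgeR adjusted p = 0.0304, 0.0301 and 0.0214). Their summed level ran from 132 to 514 CPM in ARLmon/Y testosterone kidneys, from 176 to 427 CPM in ARLmon/Y vehicle kidneys, from 166 to 396 CPM in WT testosterone kidneys and from 74.0 to 664 CPM in WT vehicle kidneys. Their part in the result was not tested, nor was that of the adrenal cortex markers in GC078620. With the mitochondrial share as a covariate, 200 genes were called, and Clock (edgeR adjusted p = 0.0327) and Nr1d2 (edgeR adjusted p = 0.00977) were among them.

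**Figure D3:**
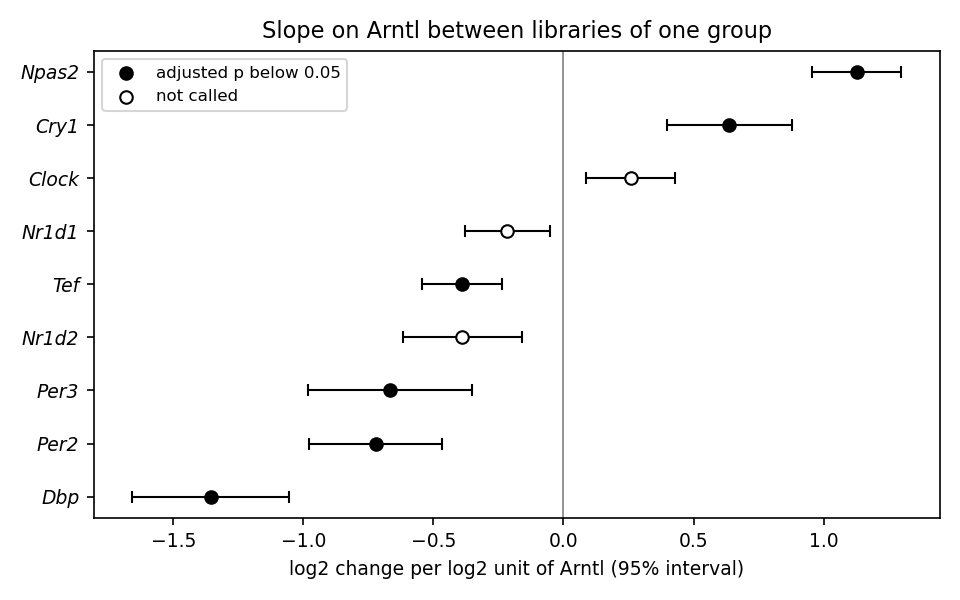
Slope of each clock gene on Arntl between libraries of one group, in log2 change per log2 unit of Arntl, with 95% intervals; filled points passed an adjusted p of 0.05 over all genes. Npas2 (1.13) and Cry1 (0.64) lie above 0, and Tef (-0.39), Per3 (-0.67), Per2 (-0.72) and Dbp (-1.36) below it.

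Taken over the 10 genes, 84.1% of the variance of the within-group deviations lay on 1 axis, along which Dbp and the Arntl and Npas2 pair go opposite ways. The deviations were not scaled, so genes of wide spread weigh most, with the largest weights on Dbp (-0.59) and Npas2 (0.43). The highest scores were in GC078606 (4.25), GC078611 (3.89), GC078614 (3.36), GC078605 (3.34) and GC078620 (3.31), and the lowest was in GC078604 (-3.51). The next axis held 7.31%, with its largest weights on Per2 (0.53), Cry1 (0.51) and Clock (0.43). GC078604 (-1.71), GC078612 (-1.44) and GC078618 (-0.96) had the lowest scores on it, and their mitochondrial shares, 7.91%, 6.86% and 6.86%, were the lowest of their groups. Among WT testosterone libraries it went the other way: GC078608 had the lowest share, 8.02%, and the highest score, 0.75. The part of this share in the second axis was not tested.

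**Figure D4:**
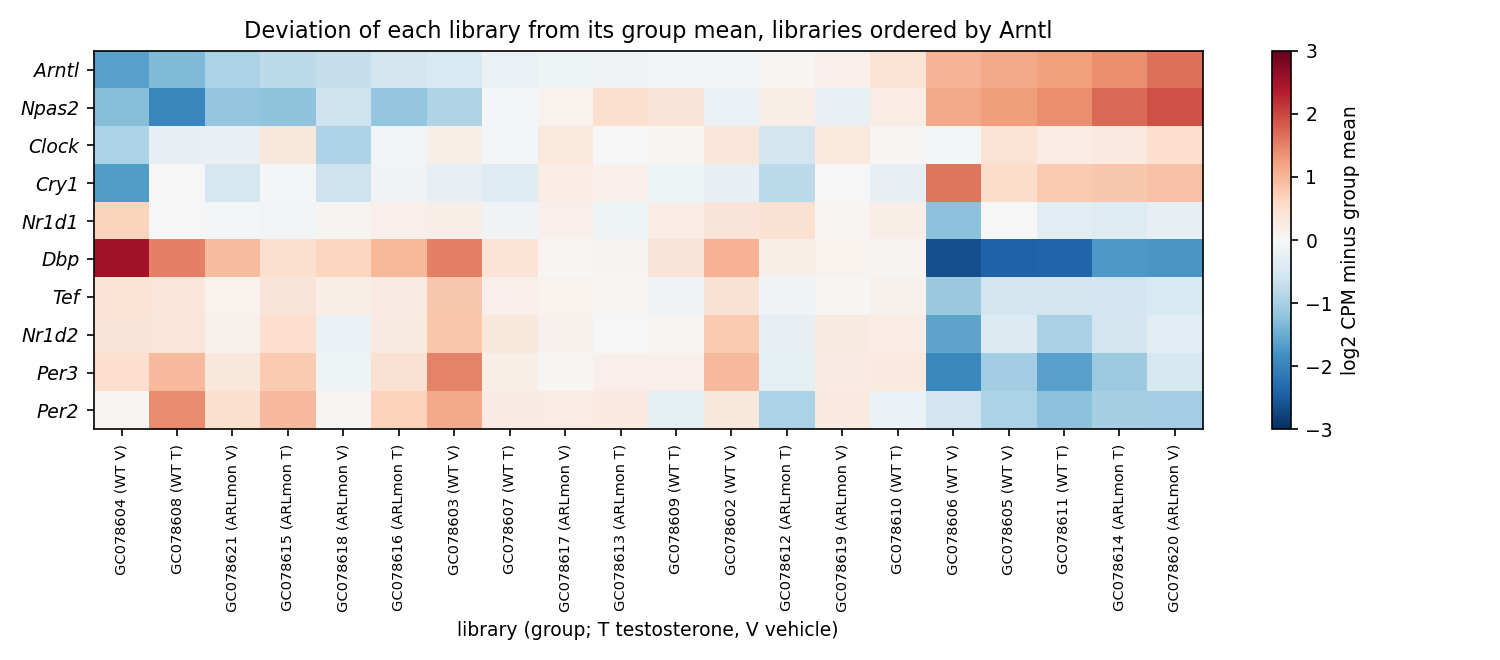
Log2 CPM of each clock gene minus its group mean in each library (red above, blue below the group mean), libraries ordered from low to high Arntl. Npas2 and Cry1 turn from blue to red with Arntl while Dbp, Tef, Nr1d2, Per3 and Per2 turn from red to blue, and libraries of all 4 groups are found on both sides.

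Testosterone was compared with vehicle in each genotype to ask whether the clock genes answer to the hormone, and through which form of the receptor. In WT kidneys none of the 10 clock genes passed the test by edgeR, where 2444 genes (15.7%) did, and for none did the 5 testosterone libraries lie apart from the 5 vehicle libraries, as they did for 12.6% of genes. At an unadjusted p below 0.05 there was 1 of the 10, Tef, where 4480 of 15549 genes were below it. Tef averaged 389 ± 88.3 CPM with testosterone and 230.5 ± 109 CPM with vehicle (SD, n = 5 each), a log2 difference of 0.75 (SE 0.27, edgeR adjusted p = 0.06). It passed with DESeq2 (adjusted p = 0.031), with limma-voom (adjusted p = 0.0362), with the level of Arntl as a covariate (log2 difference 0.60, edgeR adjusted p = 0.023), and without GC078603 (edgeR adjusted p = 0.0182) or GC078611 (edgeR adjusted p = 0.0383). These were 5 of 30 settings, over which its adjusted p ran from 0.0182 to 0.129 and its log2 difference from 0.56 to 0.97. In ARLmon/Y kidneys Tef averaged 275 ± 65.7 CPM with testosterone and 239 ± 37.6 CPM with vehicle (SD, n = 5 each), a log2 difference of 0.20 (SE 0.27, edgeR adjusted p = 0.827). The difference between these 2 responses, ARLmon/Y minus WT, was -0.56 (SE 0.38, edgeR adjusted p = 0.51).

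None of the other 9 genes passed in WT kidneys in any setting. In WT kidneys Per2 averaged 21.9 ± 15.9 CPM with testosterone and 11.2 ± 6.55 CPM with vehicle (log2 difference 0.96, SE 0.47, edgeR adjusted p = 0.18), and without GC078608 the log2 difference was 0.43. Nr1d2 averaged 124 ± 37.6 CPM with testosterone and 80.1 ± 42.5 CPM with vehicle (log2 difference 0.62, SE 0.32, edgeR adjusted p = 0.209), and without GC078606 the log2 difference was 0.39. The intervals remain wide: the 95% interval of the testosterone difference ran from -1.20 to 1.86 for Dbp and from -1.77 to 0.55 for Arntl, on the log2 scale. The median log2 difference was 0.35 over the 10 genes and -0.03 over all tested genes. Podocyte markers fell in WT kidneys with testosterone (3 of 3 called; summed level 240.1 to 303 CPM with testosterone and 311 to 478 CPM with vehicle), and 1 of 3 smooth muscle and renin cell markers did (summed level 162 to 209.9 CPM with testosterone and 226 to 425 CPM with vehicle). Of 5 proximal tubule markers, 1 was called lower as well. The part of these markers in the clock gene values was not tested.

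In ARLmon/Y kidneys none of the 10 clock genes passed, as none of the 15549 tested genes did by edgeR, DESeq2 or limma-voom, although 813 had an unadjusted edgeR p below 0.05. None of the 10 had groups that lay apart, against 0.778% of all genes. The 10 log2 differences ran from -0.25 for Dbp to 0.47 for Per2, with a median of 0.16 beside 0.01 over all genes. For the difference of the responses, ARLmon/Y minus WT, 0 of the 10 passed by edgeR, against 4.77% of all genes, and in no other setting did a clock gene pass.

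**Figure D5:**
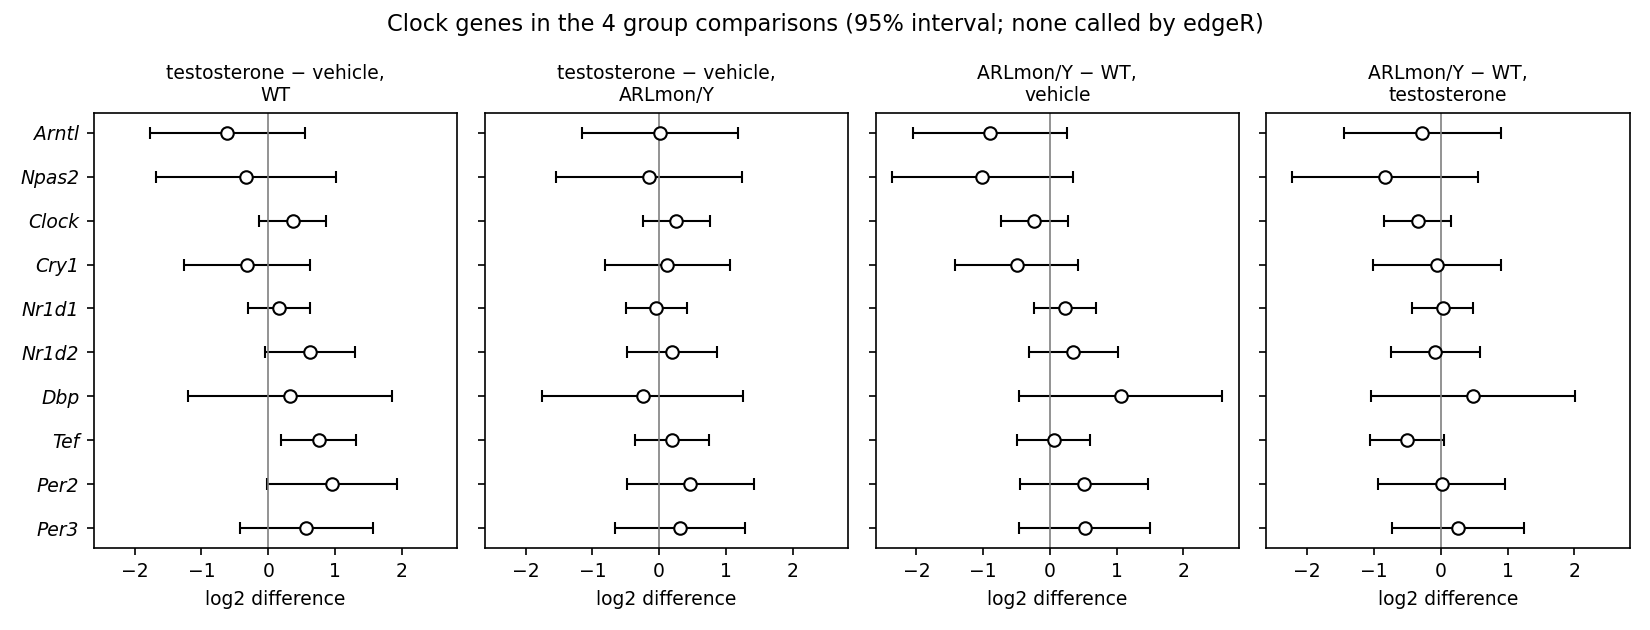
Log2 differences of the 10 clock genes in the 4 comparisons of groups (first group minus second, as written above each panel) with 95% intervals, edgeR. Every gene is an open point because none passed an adjusted p of 0.05, and Tef with testosterone in WT kidneys (0.75) is the one whose adjusted p came nearest to it, 0.06.

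The genotypes were compared under each treatment to ask whether the form of the receptor shifts the clock genes. Under vehicle none of the 10 passed by edgeR or in any other setting, where 680 genes (4.37%) did by edgeR, and none had groups that lay apart, against 4.57% of genes. Dbp averaged 91.7 ± 47.5 CPM in ARLmon/Y kidneys and 43.6 ± 45.7 CPM in WT kidneys (SD, n = 5 each; log2 difference 1.06, SE 0.73, edgeR adjusted p = 0.486). Arntl averaged 11.1 ± 9.59 CPM in ARLmon/Y kidneys and 20.9 ± 13.8 CPM in WT kidneys (log2 difference -0.90, SE 0.55, edgeR adjusted p = 0.425). The WT vehicle means rest on libraries at both ends, GC078604 against GC078605 and GC078606. With 1 library left out, the log2 difference of Dbp ran from 0.76 to 1.80 and that of Arntl from -1.60 to -0.56. The median log2 difference was 0.14 over the 10 genes and 0.00 over all genes.

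Under testosterone, 4842 genes (31.1%) differed between genotypes and 22.5% had groups that lay apart, and none of the 10 clock genes was among either by edgeR. Tef averaged 275 ± 65.7 CPM in ARLmon/Y kidneys and 389 ± 88.3 CPM in WT kidneys (SD, n = 5 each; log2 difference -0.50, SE 0.27, edgeR adjusted p = 0.162). It passed where those 2 groups were fitted alone (log2 difference -0.49, edgeR adjusted p = 0.0467) and with Arntl as a covariate (-0.61, edgeR adjusted p = 0.012), where Npas2 passed as well (-0.59, edgeR adjusted p = 0.0466). The median was -0.07 over the 10 genes and 0.04 over all genes. Markers of podocytes (3 of 3), of smooth muscle and renin cells (3 of 3) and of endothelium (2 of 3) were called higher in ARLmon/Y kidneys here. So were markers of leukocytes (2 of 3 tested), adipocytes (1 of 3) and thick limb and distal tubule (1 of 3). The part of all these markers in the clock gene values was not tested.

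A list of 16 other clock genes was tested in the same fits. With testosterone in WT kidneys 2 of 16 rose and 0 fell, beside 15.7% of all genes called. Fbxl21, a ubiquitin ligase subunit that acts on cryptochromes, averaged 7.52 ± 0.562 CPM with testosterone and 3.82 ± 0.807 CPM with vehicle (SD, n = 5 each; log2 difference 0.96, SE 0.16, edgeR adjusted p = 0.000155), and the groups did not overlap. Rora, which activates through the element shown above for Arntl, averaged 88.2 ± 10.3 CPM with testosterone and 60.5 ± 14.9 CPM with vehicle (log2 difference 0.54, SE 0.17, edgeR adjusted p = 0.0372). Rora missed the threshold without any 1 of 6 libraries, GC078604, GC078606, GC078607, GC078609, GC078610 or GC078611 (edgeR adjusted p up to 0.107), and with library size as the only scaling (edgeR adjusted p = 0.115), with no filter (edgeR adjusted p = 0.0628) or with the deposited log2 values (limma adjusted p = 0.123). In ARLmon/Y kidneys 0 of the 16 passed, and the difference of the responses passed for Fbxl21 (-1.01, SE 0.22, edgeR adjusted p = 0.00812).

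Between genotypes, 0 of the 16 passed under vehicle, and under testosterone 2 were higher and 3 lower in ARLmon/Y kidneys, beside 31.1% of all genes called. Bhlhe40, an E-box repressor, averaged 189.9 ± 11.3 CPM in ARLmon/Y kidneys and 81.2 ± 24.8 CPM in WT kidneys under testosterone (SD, n = 5 each; log2 difference 1.22, SE 0.23, edgeR adjusted p = 0.000357). Under vehicle it averaged 163 ± 30.1 CPM in ARLmon/Y kidneys and 99.3 ± 40.6 CPM in WT kidneys (log2 difference 0.71, SE 0.23, edgeR adjusted p = 0.0795). The difference of its testosterone responses was 0.51 (SE 0.32, edgeR adjusted p = 0.468). Csnk1e, a kinase that marks PER proteins, was also higher in ARLmon/Y kidneys under testosterone (0.36, edgeR adjusted p = 0.0212), which did not hold without GC078607, GC078613 or GC078614 (up to 0.0753). Fbxl21 (-0.88, edgeR adjusted p = 0.000227) and Rora (-0.59, edgeR adjusted p = 0.0131) were among those lower under testosterone. Rora missed the threshold when libraries were scaled by their size alone (edgeR adjusted p = 0.112) and with the deposited log2 values (limma adjusted p = 0.126).

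On the Arntl slope, 1 of the 16 was called above 0 and 2 below, beside 0.849% of all genes. Nfil3, a repressor at D-boxes, had a slope of 0.72 (SE 0.11, edgeR adjusted p = 0.00181), opposite in sign to the D-box activators Dbp and Tef. Ciart, a repressor of the ARNTL pair, had -1.06 (SE 0.18, edgeR adjusted p = 0.00413) and Cry2 -0.20 (SE 0.04, edgeR adjusted p = 0.0204), so that Cry1 and Cry2 had slopes of opposite sign. Cry2 missed the threshold without GC078604, GC078605 or GC078611 (edgeR adjusted p up to 0.0943), without the 2 farthest libraries (0.0905) and with the deposited log2 values (limma adjusted p = 0.0766). Bhlhe41, a relative of Bhlhe40, had -0.58 (edgeR adjusted p = 0.051) and passed in several other settings, with DESeq2 at an adjusted p of 0.000751. Without the 5 libraries highest for Arntl, Nfil3 and Ciart missed the threshold too (edgeR adjusted p = 0.282 and 0.293).

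Of 20 genes known as clock outputs in kidney or liver, all tested, 1 rose and 2 fell with testosterone in WT kidneys, again beside 15.7% of all genes. Por, the reductase that feeds electrons to cytochrome P450 enzymes, rose (0.62, SE 0.13, edgeR adjusted p = 0.00233), while Scnn1a, a subunit of the epithelial sodium channel (-0.58, SE 0.15, edgeR adjusted p = 0.00852), and Fmo2 (-0.42, SE 0.13, edgeR adjusted p = 0.0277) fell. Fmo2 missed the threshold without any 1 of 6 libraries (GC078602, GC078603, GC078605, GC078607, GC078608 or GC078610; edgeR adjusted p up to 0.0743). None of the 20 passed in ARLmon/Y kidneys or between genotypes under vehicle. Under testosterone Scnn1a (0.51, edgeR adjusted p = 0.0114) and Cldn4, a tight junction protein (0.60, edgeR adjusted p = 0.0228), were higher in ARLmon/Y kidneys and Por (-0.56, edgeR adjusted p = 0.00323) was lower. Cldn4 missed it without GC078607, GC078610, GC078612 or GC078616 (edgeR adjusted p up to 0.0631).

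On the Arntl slope 3 of the 20 outputs were called, all below 0, beside 0.347% of all genes called below 0: Usp2, a deubiquitinase and known ARNTL target (-0.40, SE 0.09, edgeR adjusted p = 0.0281), Por (-0.17, edgeR adjusted p = 0.0458) and Tspan4 (-0.27, edgeR adjusted p = 0.0473). Cldn8 had a slope of 0.22 (edgeR adjusted p = 0.0768). Por and Tspan4 lie close to the threshold, and either was lost in most of the settings that left out 1 library, with edgeR adjusted p of up to 0.14 and 0.224. Usp2 was lost without GC078605, GC078611, GC078614 or GC078620 (up to 0.115) and without the 2 farthest libraries (0.142).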

How the data were processed

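Kidney RNA was read in 20 libraries made with a stranded poly(A) kit. The submitters' processing notes name FastQC 0.11.7, HISAT2, SAMtools 1.5, HTSeq 2.7.14, DESeq2 and mm10; annotation and strand setting are not given in the sources used here. The authors deposited raw counts per gene in 4 tables of 2 groups each, and a table of log2 values whose normalization is not stated, used here as an alternative. The tables were joined, with 12045 values of absent low-count rows set to 0. R 4.3.3 with edgeR 4.0.16 (filterByExpr, TMM, 4 group means, 16 residual degrees of freedom) gave log2 differences. Adjusted p are Benjamini-Hochberg over all tested genes, with a threshold of 0.05. CPM use each library's reads in tested genes, scaled by its TMM factor. The slope fit adds the within-group deviation of log2 CPM (prior count 2) of Arntl. DESeq2 1.42.0 and limma 3.58.1 were alternatives. The procedure was tested on simulated data. Named are all 10 clock genes, called genes of 2 lists (on the slope the 4 of smallest p; some results are not reported here) and the 5 most like and unlike Arntl or Dbp. The clock genes and lists were chosen with earlier results of these data known. Positions are from GENCODE on GRCm38, sequences from RefSeq on GRCm38.p6.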

Additional observations from a re-analysis of the deposited data

Results flagged for a closer look

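In 2 of 40 combinations of a clock gene and a group, 1 library stood apart from the other 4 by more than Dixon's 95% critical value for 5 samples (0.710), which chance gives for about 1 in 20 groups. Tef had 174 CPM in the ARLmon/Y vehicle library GC078620 and 247 to 269 CPM in the other 4, a gap of 0.806 of the whole range. Nr1d2 had 59.5 CPM in the WT testosterone library GC078611 and 123 to 151 CPM in the other 4, a gap of 0.783 of the range. GC078620 and GC078611 are also the libraries with the highest Arntl of their groups. GC078620 is also the library where adrenal cortex markers summed to 20.4 CPM, and the part of that in its values was not tested.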

How the results depend on the processing

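No paired analysis was possible because the count columns carry no replicate number. Most log2 differences of the clock genes between groups lie near 0 beside their spread, and many changed sign between settings, none of those past the threshold. Tef kept a positive testosterone difference in WT kidneys in all 30 settings; for calls that were gained or lost, here or above, where no construction shows the cause it was not tested. Of the clock genes, 1 was called in that comparison with each of DESeq2, limma-voom and Arntl as a covariate, and 0 to 1 with 1 library left out. Between genotypes under testosterone, 1 was called with the 2 groups alone and 2 with Arntl as a covariate. Scaled by library size alone, the median log2 difference of all genes was -0.18 for testosterone in WT kidneys, 0.28 between genotypes under testosterone and 0.20 for the difference of the responses, and 897 of 3584 and 5690 of 6903 called genes were higher, against 1455 of 2444 and 2431 of 4842 with TMM. Under that scaling Cry1 (0.18) and Nr1d2 (0.16) between genotypes under testosterone and Clock (0.067) in the difference of the responses changed sign. With the deposited log2 values 3710 genes were called for testosterone in WT kidneys and 7528 between genotypes under testosterone, where Arntl (0.00086), Cry1 (0.26) and Nr1d2 (0.18) changed sign, as did Clock (0.060) in the difference of the responses. Per2 between genotypes under testosterone was -0.012 with DESeq2, and Cry1 with testosterone in WT kidneys 0.10 with limma-voom. With Arntl as a covariate, chosen after seeing the data, Npas2 (0.31) and Cry1 (0.20) changed sign with testosterone in WT kidneys, Tef (-0.23), Clock (0.0028), Per2 (-0.14) and Cry1 (0.21) between genotypes under vehicle, Per2 (-0.10), Cry1 (0.13) and Nr1d1 (-0.035) under testosterone, and Npas2 (-0.49), Per2 (0.049), Per3 (0.0091) and Cry1 (-0.082) in the difference of the responses.

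Genotypes under vehicle gave 330 calls with the 2 groups alone, where fewer libraries estimate the spread, and 413 to 1211 with 1 library left out. The Arntl slope gave 549 calls with DESeq2, among them Clock (adjusted p = 0.048), Nr1d2 (0.00927) and Cldn8 (0.0154, and 0.00977 with the mitochondrial covariate), 200 with the mitochondrial share as a covariate, 27 without the 2 libraries farthest in Arntl, 44 to 1270 with 1 library left out, and 4, of which 1 was a clock gene, without the 5 libraries highest for Arntl, where Nr1d1 (0.020) and Nr1d2 (0.00053) changed sign. Por and Tspan4 were lost without the 2 farthest libraries (edgeR adjusted p = 0.447 and 0.565) and with limma on the deposited log2 values (0.0639 each), Por with no filter (0.0717) and Tspan4 with library size alone (0.0641). Leaving out 1 library moved the following differences across 0. For testosterone in WT kidneys, Dbp ran from -0.14 to 1.07, Npas2 from -0.79 to 0.062, Cry1 from -0.59 to 0.21 and Nr1d1 from -0.039 to 0.33. In ARLmon/Y kidneys, Arntl ran from -0.53 to 0.71, Npas2 from -0.81 to 0.74, Cry1 from -0.12 to 0.43 and Nr1d1 from -0.17 to 0.049. Between genotypes under vehicle, Tef ran from -0.14 to 0.26 and Cry1 from -0.80 to 0.026. Under testosterone, Arntl ran from -0.81 to 0.14, Per2 from -0.26 to 0.54, Cry1 from -0.30 to 0.22, Nr1d1 from -0.10 to 0.12 and Nr1d2 from -0.26 to 0.033. For the difference of the responses, Npas2 ran from -0.48 to 1.07, Clock from -0.28 to 0.065, Per2 from -0.88 to 0.039, Per3 from -0.69 to 0.015 and Cry1 from -0.083 to 0.75.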

Other observations

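Genes other than the 10 clock genes were ranked by how closely their within-group log2 CPM followed that of Arntl over the 20 libraries, among 10828 named genes that averaged 5 CPM or more. All genes of a library share its depth and handling, so Pearson's r is given as a description. Slc16a1, a lactate and pyruvate transporter, came first with r = 0.98, closer than Npas2 (r = 0.95). It ran from 35.2 to 90.1 CPM in ARLmon/Y testosterone kidneys, from 36.6 to 109 CPM in ARLmon/Y vehicle kidneys, from 38.1 to 119 CPM in WT testosterone kidneys and from 38.9 to 103 CPM in WT vehicle kidneys. Rdh10, an enzyme of retinoic acid synthesis (0.95), Ypel2 (0.93), Clpx, a mitochondrial protein unfoldase (0.93), and Rhobtb1 (0.89) followed. The lowest r belonged to Cys1, a protein of primary cilia (-0.91), Prss8, a protease that activates the epithelial sodium channel (-0.88), Clec2d (-0.88), Rwdd2b (-0.85) and Slc51a, an organic solute transporter subunit (-0.84).

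For Dbp the closest were Sap30, a subunit of a histone deacetylase complex (0.91), Inmt, a methyltransferase (0.89), Cys1 (0.88), Tprkb (0.87) and Gjb2, a gap junction protein (0.87). Inmt ran from 679 to 2020 CPM in WT testosterone kidneys and from 124 to 761 CPM in WT vehicle kidneys. The genes most opposite to Dbp were Cluh (-0.93), Nfil3, which is also in the list of other clock genes (-0.91), Dtx4 (-0.91), Leo1 (-0.90) and Clpx (-0.90).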
